A study of Homo sapiens with 18 samples.

Results

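Ribosome footprints from wild-type HEK293 cells (WT) were compared between the membrane fraction and the cytosolic fraction of the same line. The 4 libraries compared were the ribosome profiling libraries whose titles name wild-type cells, 2 of membrane and 2 of cytosol, lettered a and b, out of 18 libraries in the series. HEK293 is an established human embryonic kidney line; the WT cells were unedited and untreated. The other footprint libraries came from clonal Cas9 knockouts of the same line, UFM1-KO and UFSP2-KO, in the same fractions, with 4 libraries per line; UFM1, a small modifier related to ubiquitin, is joined to ribosomes at the endoplasmic reticulum, and the protease UFSP2 takes it off again. The cytosolic fraction was what digitonin released, and the membrane fraction was what Triton-X dissolved from the pellet left afterwards, per the labels' protocols. The labels do not say that libraries a and b came from separate cultures, so p-values measure the spread between these libraries, which may be technical.

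Ribosomes that make secreted and membrane proteins are brought to the endoplasmic reticulum while they translate: the signal recognition particle binds the emerging signal sequence or first transmembrane segment and docks the ribosome on the Sec61 channel. Digitonin opens the cholesterol-rich plasma membrane and largely spares the endoplasmic reticulum, so that ribosomes free in the cytosol leave the cell first. RNase I then trims the mRNA down to the stretch each ribosome covers, and counting these footprints per transcript measures translation in each fraction. A pellet of this kind also keeps mitochondria, nuclei and cytoskeleton, so the membrane fraction is defined by solubility.

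The values are counts per Ensembl transcript. Transcripts with identical counts in all 12 footprint libraries were merged into 1 feature, which left 14377 features, of which 11065 passed the filter on low counts and were tested. Of those tested, 8559 stood for 1 transcript and 2506 for several, up to 16. Neither the tables nor the references at hand give a gene name for a transcript ID, so features are described by level, ratio and length, the planned gene lists were not used, and neither the fractions nor the cell line were checked with marker genes. A gene can contribute more than 1 feature through its isoforms, and reads of near-identical genes may be shared among features. The membrane libraries a and b held 3893984 and 11388755 counts, and the cytosol libraries 1393032 and 6666021. Levels are given as CPM, counts scaled to a common library size after TMM normalization. Log2 CPM correlated between a and b at Pearson's r = 0.98 for the membrane libraries and 0.957 for the cytosol libraries, across features, which are not independent replicates.

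How the footprints of a transcript divided between the fractions was read from the log2 ratio of the 2 fractions. Because the membrane fraction is defined by solubility, the ratio does not by itself give the site of translation. Most features lay near an equal level in both, and a second, broad group lay far higher in the membrane fraction. The ratio was between -1 and 0 for 4941 features and between 0 and 1 for 2786. Only 193 features lay between 2 and 3. The number then climbed again to 467 between 5 and 6, 444 between 6 and 7 and 361 between 7 and 8, and 17 features lay above 10. Of these, 21 of the 467, 78 of the 444, 88 of the 361 and 15 of the 17 had 0 counts in both cytosol libraries. The ratio of such a feature is a fitted value without cytosol counts, so its place among the high intervals is uncertain. No such group was seen on the other side, where 695 features lay between -2 and -1, 15 between -3 and -2 and 9 below -4.

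**Figure D1:**
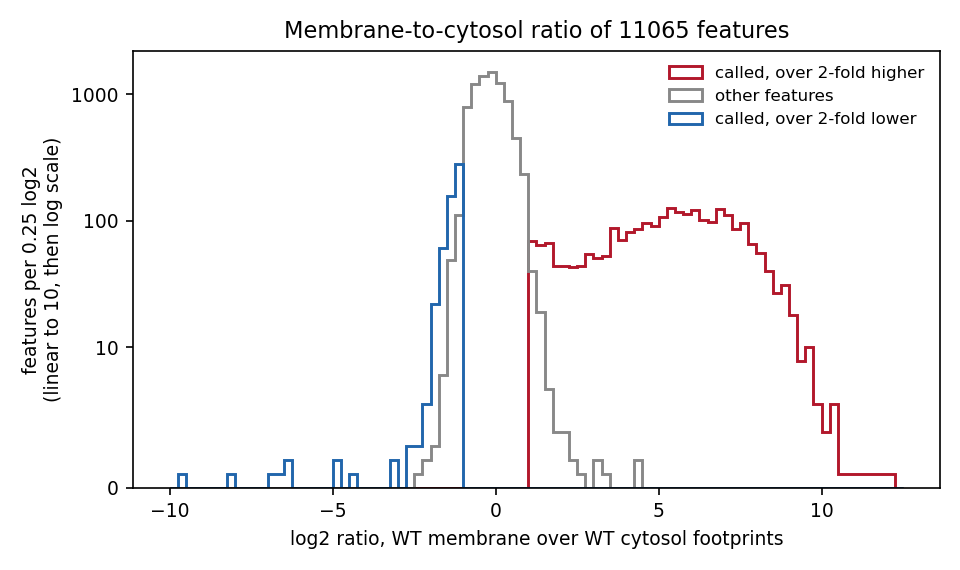
Number of features per 0.25 log2 units of the ratio of WT membrane over WT cytosol footprints, with a vertical axis that is linear to 10 and logarithmic above. Lines separate features called by edgeR and over 2-fold higher (2535), called and over 2-fold lower (547), and all others. The high group forms a broad second peak, and the low group is an edge of the main peak with a few features far to the left.

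In edgeR's quasi-likelihood fit, two-sided at 0.05 after Benjamini-Hochberg adjustment over the 11065 features, 2802 features (25.3% of those tested) were higher in the membrane fraction and 1351 (12.2%) lower. Those called and over 2-fold higher, the membrane class, numbered 2535 (22.9%). Those called and over 2-fold lower numbered 547 (4.94%). A further 267 features were called higher and 804 lower by 2-fold or less, and 6912 were not called. The ratio is relative to the typical feature of each fraction, since the data do not hold the number of ribosomes per fraction. Of all calls 67.5% were on the higher side; scaling by library size only made that 56.5% and shifted the overall median log2 ratio by -0.14, and DESeq2 gave 82.8%. The count of lower calls also depended on the libraries: it was 783 without membrane library a, 749 without membrane library b and 625 without cytosol library b.

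The transcripts at the extremes were chosen by a rule: a call, no overlap of the fractions, at least 50 CPM in both libraries of the higher fraction, and then the 2 highest and 2 lowest ratios. Of the 1116 features that met the conditions on the higher side, ENST00000461988.4 had the highest ratio. It had 188 and 188 CPM (459 and 1349 counts) in the membrane libraries, against 0 and 0 counts in the cytosol libraries. The fractions did not overlap, and it was at least 335-fold higher in the membrane fraction, counting the cytosol as 3 counts over both libraries (edgeR adjusted p = 2.78e-15). Its mRNA stood at 80.6 and 84.5 CPM in whole WT cells.

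ENST00000361681.2, the next, had 163 and 164 CPM (399 and 1177 counts) in the membrane libraries, again with 0 and 0 counts in the cytosol libraries. It was at least 292-fold higher (edgeR adjusted p = 4.92e-14), and it is short, with a length of 155 in the tables. No mRNA value was matched to it. In the other lines it was also almost absent from the cytosol: it had 1195 and 299 membrane counts, against 1 and 0 cytosol counts, in UFM1-KO, and 147 and 286, against 1 and 0, in UFSP2-KO. The first transcript had few cytosol counts there too, 4 and 5 for UFM1-KO, then 2 and 6 for UFSP2-KO. Its log2 ratio was 6 (SE 0.34) in UFM1-KO and 7.24 (SE 0.35) in UFSP2-KO. The fitted value in WT was 12.1, which rests on 0 and 0 cytosol counts. Neither difference from WT was called (edgeR adjusted p = 0.251 and 0.849).

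On the lower side 530 features met the conditions, and ENST00000369886.6 was the lowest. It had 1.23 and 0.698 CPM (3 and 5 counts) in the membrane libraries, against 62 and 85 CPM (62 and 369 counts) in the cytosol libraries. Its log2 ratio was -6.42 (SE 0.59, edgeR adjusted p = 3.9e-10), and its mRNA was low, at 2.14 and 3.46 CPM. ENST00000579512.2 came next at a far smaller difference. It had 1536 and 1397 CPM in the membrane libraries, against 5827 and 5811 CPM in the cytosol libraries, a log2 ratio of -1.99 (SE 0.18, edgeR adjusted p = 2.92e-10). Libraries of a fraction nearly coincided and the fractions stood well apart. Its length in the tables is 83, which many other features share, so reads of near-identical copies could be divided or repeated among them.

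**Figure D2:**
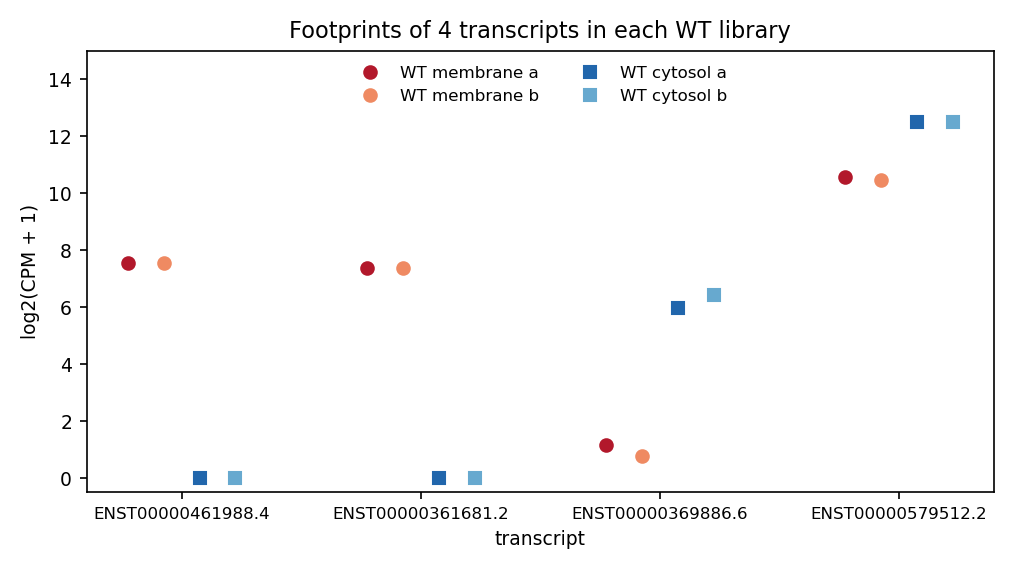
Footprints of the 4 transcripts in each WT library as log2(CPM + 1), membrane libraries as circles and cytosol libraries as squares. The first 2 transcripts have 0 counts in both cytosol libraries, the third is nearly absent from the membrane libraries, and the fourth is abundant in both fractions with the cytosol higher.

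The membrane class was divided by its log2 ratio to see where the footprints lay; the ratio itself formed these groups, so their values are a description. The 575 features over log2 7 were 5.2% of those tested and held 14.4% and 14% of the membrane footprints, against 0.154% and 0.0402% of the cytosol footprints in libraries a and b. Of these 575, 201 had 0 counts in both cytosol libraries, so their place in the group rests on a fitted value. The 911 features from log2 5 to 7 held 6.82% and 6.64% of membrane footprints, against 0.195% and 0.0797% in the cytosol. The 618 features from 3 to 5 held 2.26% and 2.08%, against 0.194% and 0.123%. The 431 features from 1 to 3 held 3.4% and 3.43%, against 1.34% and 1.17%. The strongest ratios carried the largest part of the class's membrane footprints, and in all 4 groups both membrane libraries stood above both cytosol libraries. In mRNA of whole WT cells only 559, 899, 610 and 423 features of these groups were matched. Those held 4.66% and 4.78%, 4.07% and 4.3%, 1.97% and 2.11%, and 2.99% and 3.58% of the matched counts. The mRNA shares of the 2 upper groups lay between their membrane and cytosol shares, while those of the 2 lower groups overlapped their membrane shares. The footprint shares include the unmatched features, among them the most abundant class feature, so the 2 kinds of share do not cover the same features.

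**Figure D3:**
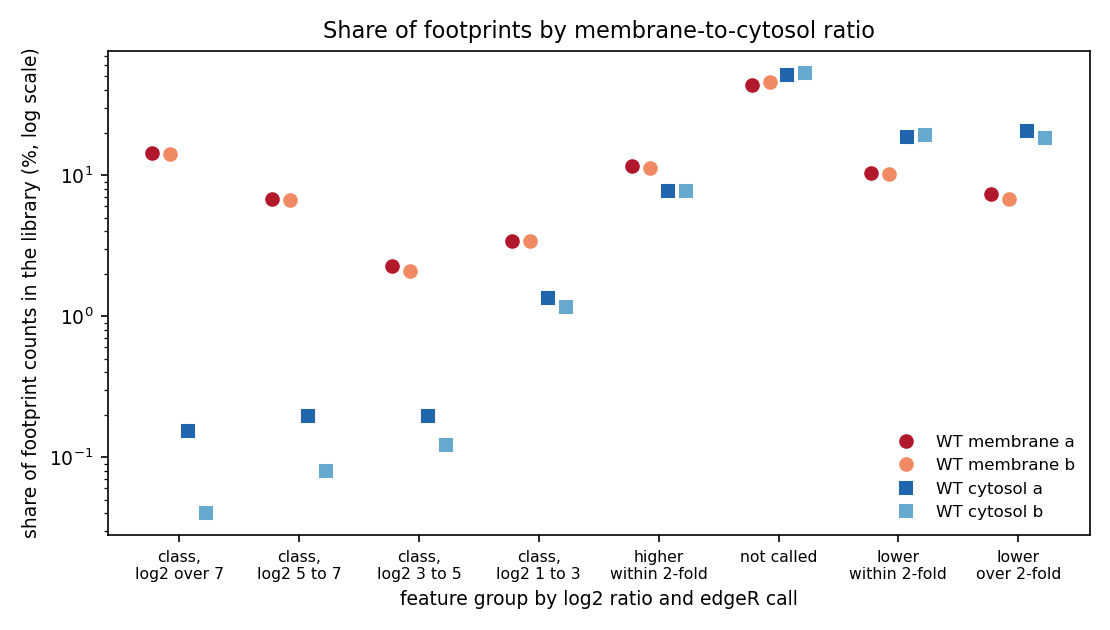
Share of footprint counts of tested features in each WT library (percent, logarithmic axis) for 8 groups of features ordered by the ratio of membrane over cytosol, membrane libraries as circles and cytosol libraries as squares. The cytosol libraries a and b separate from each other in the 3 groups with the highest ratios and nearly coincide elsewhere.

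The few footprints of the highest-ratio features left in the cytosol differed between the cytosol libraries. The share of the group over log2 7 in library a was 3.83 times that in library b, 0.154% (exact 95% binomial interval 0.146% to 0.162%) against 0.0402% (0.0384% to 0.0422%). These intervals cover counting error only, since reads without molecular identifiers are not independent molecules. The factor was 2.45 from log2 5 to 7, 1.58 from 3 to 5 and 1.15 from 1 to 3. For the class as a whole it was 1.34, and among features not called 0.962. The groups were formed from a ratio fitted on these same cytosol libraries, of which b is the deeper. A low level in library b thus helped to place a feature in a high group. These factors are therefore a description, and the intervals do not cover that selection. A factor as large was also seen at the other extreme, 5.17 for the 9 features below log2 -4. Between the membrane libraries the 4 class groups differed by factors of 0.991 to 1.08, and the features not called by 0.962. The size of the enrichment moved with the cytosol library used. The median log2 ratio of the class was 5.45, and it was 5.8 without cytosol library a and 5.23 without cytosol library b.

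Depth limited the ratios as well. Of the 2535 class features, 300 had 0 counts in both cytosol libraries and 1785 had 10 or fewer over both, while 118 had more than 100. Setting the 300 at a floor of 3 counts over both libraries, 0.561 CPM, gave a median log2 ratio of the class of 4.97, or 31.3-fold, where the fitted median was 43.8-fold. Features with some cytosol counts but fewer than 3 kept their fitted ratios, so the floor does not cover them. The bounds of those 300 features ran from 2.58-fold to 335-fold. The standard error of a class feature's log2 ratio had a median of 0.91 under 10 CPM in the membrane fraction, 0.57 from 10 to 30, 0.44 from 30 to 100, 0.39 from 100 to 300 and 0.37 at 300 CPM or more.

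The features with the most footprints in the fractions overlapped in large part: of the 100 features with the highest mean CPM in each, 61 were in both lists. CPM is not divided by length, so a long transcript can rank high at a low density of ribosomes. In the membrane list 25 were in the class, near the 22.9% of all features tested, and 19 were over 2-fold lower, against 4.94% of all. In the cytosol list 0 were in the class and 35 were over 2-fold lower. The levels that rank the lists also form the ratio, so these counts are a description. The most abundant class feature, of length 494, had 8021 and 6038 CPM in the membrane libraries, against 35 and 5.07 CPM in the cytosol libraries. The feature with the most membrane footprints overall was no class member: it had 19991 and 15949 CPM in the membrane libraries, against 10992 and 10112 CPM in the cytosol libraries (log2 0.77, SE 0.16, edgeR adjusted p = 2.01e-04). The median length of the 100 most abundant features was 391.5 for the membrane list and 179.5 for the cytosol list.

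The ratio of the fractions also differed by length across the features tested. The length in the tables was read as coding codons after a fixed trim, because its lowest value is -17. It played no part in forming the ratio. The median log2 ratio was -0.62 for the 420 features under 100, -0.54 for the 1330 from 100 to 199 and -0.27 for the 3003 from 200 to 399. It was 0.04 for the 3902 from 400 to 799, 0.29 for the 1873 from 800 to 1599 and 0.66 for the 537 of 1600 or more. The medians increased from bin to bin without each WT library in turn, with RLE and with library size only. Without cytosol library b the 3 shortest bins lay nearer to 0, at -0.33, -0.30 and -0.09, and with library size only the bin from 400 to 799 lay at -0.10. Between features of 800 or more and those under 200 the medians differed by 0.92, with an SD between libraries of 0.22, and by 0.72 without cytosol library b and 1.03 without cytosol library a.

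**Figure D4:**
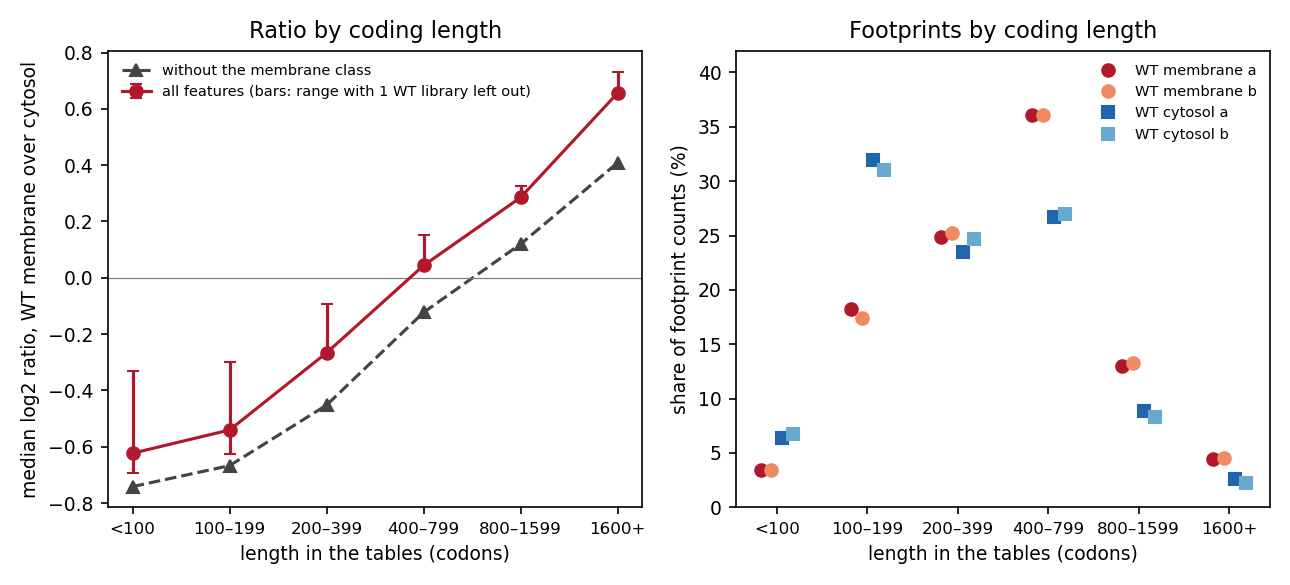
Left, median log2 ratio of WT membrane over cytosol footprints by length in the tables, for all tested features, with bars for the range when 1 WT library is left out, and without the membrane class. Right, share of footprint counts in each WT library by length, membrane libraries as circles and cytosol libraries as squares. The median climbs from -0.62 to 0.66 with length, and membrane and cytosol libraries do not overlap in any bin.

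The same could be seen in the footprints themselves. Features under 100 held 3.42% ± 0.034 of membrane footprints and 6.54% ± 0.26 of cytosol footprints (SD, n = 2 each). Features from 100 to 199 held 17.8% ± 0.54 and 31.5% ± 0.64. A few recurring lengths held much of the difference in these short bins, and their features can be copies that share reads. Lengths 106, 116 and 110 held 6.62%, 4.91% and 3.26% of cytosol library a. In membrane library a they held 2.46%, 1.91% and 1.5%. Length 83 held 2.72% of cytosol library a and 0.676% of membrane library a. Features from 200 to 399 held 25% ± 0.26 and 24.1% ± 0.85, close to equal. Features from 800 to 1599 held 13.2% ± 0.19 and 8.58% ± 0.38, and those of 1600 or more held 4.49% ± 0.046 and 2.44% ± 0.28. Libraries of the fractions did not overlap in any of the 6 bins. The two-sided exact permutation p was 0.33 in each of the 6, before and after adjustment, which is the smallest that 2 libraries against 2 can give.

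Features outside the class were also described by length. Across the 8530 features outside the class, log2 length and log2 ratio correlated at Pearson's r = 0.463 and Spearman's rho = 0.534, against 0.135 and 0.356 across all 11065; all points come from the same 4 libraries and the correlation is a description. Leaving out the class removes features by their ratio, so these values do not compare the class with the rest. Outside the class, 44.3% of features under 100 and 42.1% of those from 100 to 199 were called lower, against 1.65% of those of 1600 or more. Conversely 25.3% of the features of 1600 or more outside the class were called higher, against 1.08% of those under 100. The features called higher by 2-fold or less had a median length of 1200, the longest of any group, against 184 for those over 2-fold lower.

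Within the class the middle lengths stood highest. Its median log2 ratio was 2.7 under 100, 4.95 from 100 to 199, 5.58 from 200 to 399, 5.77 from 400 to 799, 5.39 from 800 to 1599 and 2.98 at 1600 or more. At the long end, 88 of the 174 class features of 1600 or more lay between log2 1 and 3, next to the threshold of the class. At the short end 28 of the 50 class features under 100 lay there. The share of features in the class was 11.9% under 100, 24.5% from 200 to 399 and 32.4% at 1600 or more.

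The 547 features over 2-fold lower in the membrane fraction were short and held a large part of cytosol footprints. They carried 7.39% and 6.74% of membrane footprints, against 20.6% and 18.4% of cytosol footprints, from 4.94% of the features tested. Of them 300 (54.8%) were under 200 in length, against 15.8% of all features tested. Some lengths recurred: 19 had a length of 106, 15 a length of 83, 12 a length of 116 and 7 a length of 110. All 30 tested features of length 106 together held 2.46% and 2.27% of membrane footprints, against 6.62% and 5.7% of cytosol footprints. The 24 of length 83 held 0.676% and 0.665%, against 2.72% and 2.63%. The 25 of length 116 held 1.91% and 1.65%, against 4.91% and 4.14%. The 18 of length 110 held 1.5% and 1.23%, against 3.26% and 3.05%. Features of 1 length with like ratios and levels can be copies that share reads, so their number and the share they hold are uncertain. The 547 features spread over 319 lengths, and their own footprints were not summed by length. The shares by length also count tested features of that length that were not over 2-fold lower. This count also depended on scaling: it was 926 with library size only and 281 with DESeq2.

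The same ratio in the knockout lines, from libraries that played no part in the WT ratio, showed how far the groups carry over. Of the 575 WT features over log2 7, UFM1-KO had 574 and UFSP2-KO had 570 that were also called and over 2-fold higher, where such features were 21.7% and 22.6% of those tested. Of the 431 from log2 1 to 3 it was 288 (66.8%) and 324 (75.2%). Of the 547 over 2-fold lower in WT, UFM1-KO had 115 (21%) and UFSP2-KO had 255 (46.6%) that were called over 2-fold lower, against 2.29% and 6.32% of all features tested, and 0 were called over 2-fold higher in either. The model and its spread were shared by all 12 libraries. The median log2 ratio of the WT group over 7 was 6.79 for UFM1-KO, 6.7 for UFSP2-KO and 7.74 for WT, on which the group was chosen. The length medians of UFSP2-KO increased in every bin, between -0.9 under 100 and 0.65 at 1600 or more. Those of UFM1-KO were -0.29 under 100 and -0.34 from 100 to 199, and then increased up to 0.36. Whether the lines differ in this was not tested.

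The difference of the ratio between a knockout and WT was tested in the same model. By edgeR it was called for 1 feature with UFM1-KO (0.00904%) and 1 with UFSP2-KO (0.00904%). An unadjusted p under 0.05 was seen for 539 (4.87%) and 487 (4.4%) features, about the share this threshold passes when no ratio differs. In the membrane class, which was chosen on the WT ratio, it was 9.15% for each line. The feature in UFM1-KO was ENST00000369886.6, described above, whose log2 ratio was -1.03 (SE 0.47) in UFM1-KO, against -6.42 (SE 0.59) in WT. DESeq2 called 0 in UFM1-KO and 2 in UFSP2-KO.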

How the data were processed

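Per the labels, RNase I footprints were sequenced from digitonin (cytosol) and Triton-X (membrane) lysates. The submitters' processing notes name TopHat2 2.1.1 and GRCh38; no counting program, strand setting or annotation is given there. Each deposited table held raw counts per transcript and a length, another deposited column in no stated unit, under no header. From these, rows with identical counts in the 12 footprint libraries were merged and tested in R 4.3.3 with edgeR 4.0.16: filterByExpr with a minimum count of 10, TMM, glmQLFit with 1 coefficient for each of 6 groups, and a contrast of the WT fractions. Standard errors came from the F statistic. DESeq2 1.42.0 was an alternative, and scipy 1.17.1 gave exact binomial intervals. WT mRNA, from whole-cell lysate, was matched by the ID of a feature's first transcript without its version, and by length (1 more in the mRNA tables), and scaled to the matched features tested. The code was tested on simulated counts. The planned gene lists and protein hydropathy bins needed names and sequences that were not used here. The comparison, groups and length bins were chosen with earlier results of these data known. The named transcripts are the 2 highest and 2 lowest ratios among called features whose fractions did not overlap and that had at least 50 CPM in both libraries of the higher fraction; features described by length alone were the most abundant ones or were chosen after their values were seen. The planned test of footprint shares per gene list was run on length bins instead.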

Additional observations from a re-analysis of the deposited data

Results flagged for a closer look

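In 2 cases the ratio differed between WT and a knockout line by edgeR's test of the difference itself, adjusted over all features tested. The calls did not hold throughout: DESeq2 called 0 features for UFM1-KO, edgeR called 0 for UFM1-KO without WT membrane library b, and 0 for UFSP2-KO without WT cytosol library b. For ENST00000369886.6 the log2 ratio was higher in UFM1-KO by 5.39 (SE 0.81, edgeR adjusted p = 0.00546). It had 89 and 2 counts in the membrane libraries of UFM1-KO, against 3 and 5 in those of WT, so that 1 library held most of its membrane counts. In CPM, which allows for depth, it had 16.4 in library a, the deeper one, and 1.07 in library b of UFM1-KO. Why these libraries differed was not tested. Every other feature with a WT log2 ratio below -4 also had more counts in membrane library a of UFM1-KO. They had 6 to 54 counts in membrane library a of UFM1-KO, against 0 to 8 in b. In the cytosol it had 41 and 36 counts in UFM1-KO, against 62 and 369 in WT.

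For the feature called in UFSP2-KO, of length 232, the log2 difference was -5.2 (SE 0.8, edgeR adjusted p = 0.00791). In the membrane libraries it had 15.9 and 13.1 CPM in UFSP2-KO, against 816 and 780 CPM in WT. In the cytosol libraries it had 7.1 and 1.47 CPM (8 and 5 counts) in UFSP2-KO, against 8.99 and 3.22 CPM (9 and 14 counts) in WT. Its cytosol counts were low in both lines, and the lines differed mainly in its membrane level.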

How the results depend on the processing

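The count of features called higher, that of the membrane class and the difference between long and short features stayed within 1.5 times, or within the SD between libraries, under every alternative run: RLE size factors, library size only, no filter, DESeq2, only the WT libraries, the replicate block, no merging, and each WT library left out. The 4 named transcripts kept their calls throughout. Called features numbered 2396 to 2835 higher and 625 to 1292 lower with 1 WT library left out; the class numbered 2290 to 2679 and its median log2 ratio was 5.23 to 5.8, and features over 2-fold lower numbered 437 to 653. Lower calls numbered 2045 with library size only and 552 with DESeq2, and those over 2-fold 926 and 281. The test against UFM1-KO called 4 features with library size only, 0 with DESeq2, 5 with the replicate block and 0 to 5 with a WT library left out, and that against UFSP2-KO called 2 with DESeq2, 6 with the replicate block and 0 to 9; the cause was not tested. With the replicate letter as a block 2953 features were higher and 1706 lower; same-lettered WT libraries deviated together at r = 0.19 across features, but 2 letters do not establish a pairing. Of the class, 2199 to 2497 of its 2535 features were called again with a library left out. The length difference was 0.97 with 1 value per length and 0.96 over features of at least 10 CPM, and like every alternative for the length difference and the class median these were chosen after seeing the data. Gene lists and hydropathy bins were not run. Cytosol library a, the shallowest, had 0 counts for 832 tested features.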

Other observations

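A few features were read almost wholly in the cytosol although whole-cell mRNA libraries held little of them. There were 9 features with a log2 ratio below -4, and edgeR called all 9 lower. They summed to 22 and 33 counts in the membrane libraries, against 904 and 826 in the cytosol libraries. Their mRNA was between 0 and 5.8 CPM, with 4 of them at 0 in both mRNA libraries, against a median of 41.6 and 42.8 CPM for features neither in the class nor over 2-fold lower. The first of them, of length 222, had 0 and 2 counts in the membrane libraries, against 405 and 71 in the cytosol libraries, and no mRNA counts. Cytosol library b held the fewer of these counts although it is the deeper, so the cytosol libraries disagreed widely on the level of this feature. The feature was also read mostly in the cytosol of UFM1-KO, with 28 and 1 membrane counts against 1192 and 542, and of UFSP2-KO, with 7 and 0 against 26 and 121. As a share of footprints the 9 stood at 0.0986% in cytosol library a and 0.0191% in cytosol library b. These features were picked for their ratio after it was seen, and no cause was tested.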
